A study of Mus musculus with 12 samples.

Results

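The 10 genes described here, of 16516 listed in mouse macrophages, were Klrk1, Il23r, Sectm1a, Sct, Slc6a4, Lipg, Elovl2, Art3, Coch and Meikin. They were chosen by their reads, none or almost none in a DMSO group and many in the DMXAA libraries, and the contrast of DMXAA with DMSO is therefore given as a description with no test. The difference between genotypes under DMXAA, which was not itself the ground of the choice, was tested. It is not independent of the choice, since the DMXAA reads it uses were part of it.

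The cells were bone marrow-derived macrophages, which are grown from marrow progenitors. WT cells carry the label WTfl/fl and KO cells the label MGMT KO, MGMT being a methyltransferase that repairs alkylated guanine. How the knockout was made, and whether the samples of a group came from separate mice, is not given in the sources used here. Cells of each genotype received either DMSO, the vehicle, or DMXAA, a small-molecule agonist of mouse STING, for 24 h. The design text gives 10 mg/ml for DMXAA, a unit that may be a slip and could not be checked. The 4 groups (WT DMSO, WT DMXAA, KO DMSO and KO DMXAA) hold 3 libraries each, and p-values therefore measure only the spread between these samples.

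Most of the 10 genes are best known from programmes of other cells. Klrk1 encodes NKG2D, the activating receptor of natural killer and T cells for stress ligands, and Il23r encodes the receptor chain that gives T cells and innate lymphoid cells their response to IL-23. Sct encodes the gut hormone secretin, Slc6a4 the serotonin transporter of neurons and platelets, and Lipg the endothelial lipase that acts on HDL phospholipids. Elovl2 elongates polyunsaturated fatty acids in liver, retina and testis, Coch encodes the inner-ear matrix protein cochlin, and Meikin directs kinetochores in the first meiotic division. STING activation leads to type I interferon and NF-kappaB signalling, the main induced programme of macrophages that sense cytosolic DNA.

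The listed genes of the 12 libraries added up to 79.5 to 98.1 M reads per library (M, 1000000). Mgmt had 263, 245 and 243 reads in the WT DMSO libraries and 121, 141 and 162 in the KO DMSO libraries. Under DMXAA it had 107, 85 and 99 reads in WT and 51, 61 and 33 in KO, so KO libraries were lower in both treatments but not at 0. The macrophage markers (Adgre1, Csf1r, Lyz2 and 6 others) were all read in every group. In WT their summed level was 20669 to 21103 reads per M reads under DMSO and 11542 to 11780 under DMXAA. In KO it was 16798 to 17607 and 9457 to 9545. The markers did not move together: 3 of the 9 were called higher and 5 lower in WT, and 3 and 6 in KO. In WT, Lyz2 went from 1053254, 960799 and 861230 reads to 349043, 379262 and 332813. Fcgr1 went from 13525, 14637 and 10524 to 100305, 108187 and 95121. In bulk RNA, a change in the number of cells that hold a transcript and a change in the amount per cell cannot be told apart.

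RefSeq promoter windows of the build GRCm38.p6 were examined for 7 of the 10 genes (Art3, Il23r, Klrk1, Sct, Slc6a4, Coch and Elovl2). Their 250 bases before each start site were searched on both strands for 5 short motifs. The remaining genes were not searched, which does not mean that they lack a window. The 4 below are shown because Il23r, Sct and Art3 hold a match and are genes that differed between genotypes under DMXAA, while Klrk1, with the most DMXAA reads of the 7, holds none. Capitals mark the letters of a match, and the start site follows the last base. Art3 has several annotated starts, and the window shown (chr5:92386637-92386886, plus strand) belongs to an internal one. The other windows are chr6:67491856-67492105 for Il23r, chr7:141279134-141279383 for Sct and chr6:129623865-129624114 for Klrk1, all on the minus strand.
Il23r: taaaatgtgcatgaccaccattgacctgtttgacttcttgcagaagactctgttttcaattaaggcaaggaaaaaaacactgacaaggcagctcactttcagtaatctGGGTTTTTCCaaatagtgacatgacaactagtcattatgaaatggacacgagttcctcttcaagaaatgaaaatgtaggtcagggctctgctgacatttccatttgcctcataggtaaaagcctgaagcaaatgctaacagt
Sct: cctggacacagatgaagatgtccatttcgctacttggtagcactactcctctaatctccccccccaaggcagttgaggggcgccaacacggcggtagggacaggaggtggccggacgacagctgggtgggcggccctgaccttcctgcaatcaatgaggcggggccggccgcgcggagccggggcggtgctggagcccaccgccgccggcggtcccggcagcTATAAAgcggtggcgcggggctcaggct
Art3: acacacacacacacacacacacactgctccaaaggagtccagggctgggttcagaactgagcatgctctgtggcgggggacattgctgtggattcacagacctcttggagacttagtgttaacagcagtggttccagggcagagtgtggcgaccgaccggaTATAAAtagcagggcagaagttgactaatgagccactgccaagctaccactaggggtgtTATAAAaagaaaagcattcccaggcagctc
Klrk1: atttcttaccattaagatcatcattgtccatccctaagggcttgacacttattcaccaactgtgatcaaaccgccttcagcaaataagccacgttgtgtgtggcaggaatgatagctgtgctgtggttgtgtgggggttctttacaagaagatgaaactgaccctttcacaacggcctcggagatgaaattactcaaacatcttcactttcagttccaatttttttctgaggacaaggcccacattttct

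Il23r held GGGTTTTTCC, 142 to 133 bases before the start. It matches GGG, any 2 bases, TTTCC, a loose search pattern for NF-kappaB sites, and was not scored against a stricter site form. Of 27025 genes, 1.65% hold a match to this pattern in a window of this length. TATAAA stood 28 to 23 bases before the Sct start, and both 89 to 84 and 30 to 25 bases before the internal Art3 start. The window of the outermost Art3 start, not shown, held it 245 to 240, 243 to 238 and 163 to 158 bases before that start. Of all genes, 14.3% hold it somewhere in a window, at any distance. None of the 7 genes held the core of an interferon-stimulated response element (GAAA, any 2 bases, GAAA), which 3.46% of genes hold, the core of a gamma-activated site (TTC, any 3 bases, GAA; 8.13%), or the AP-1 letters TGACTCA (5.16%). Base composition also differed within the set. GC content was 39.6% in the Il23r window and 42.8% in that of Klrk1, against 68.0% for Sct, 64.8% for Slc6a4 and 74.8% for Coch, and the median over all windows was 52.4%. These matches describe letters only and do not show that a factor binds there.

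Under DMSO, 8 of the 10 genes (all but Lipg and Sectm1a) had 0 reads in every WT library. In KO, Lipg, Sct, Meikin and Il23r had 0 reads in every DMSO library. Sectm1a was at 0 in neither genotype, with 7 reads in the WT DMSO libraries together and 4 in the KO ones. Every DMXAA library lay above every DMSO library of its genotype for all 10 genes, a count that the choice of genes fixes (34.7% of tested genes in WT and 35.8% in KO did so).

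**Figure D1:**
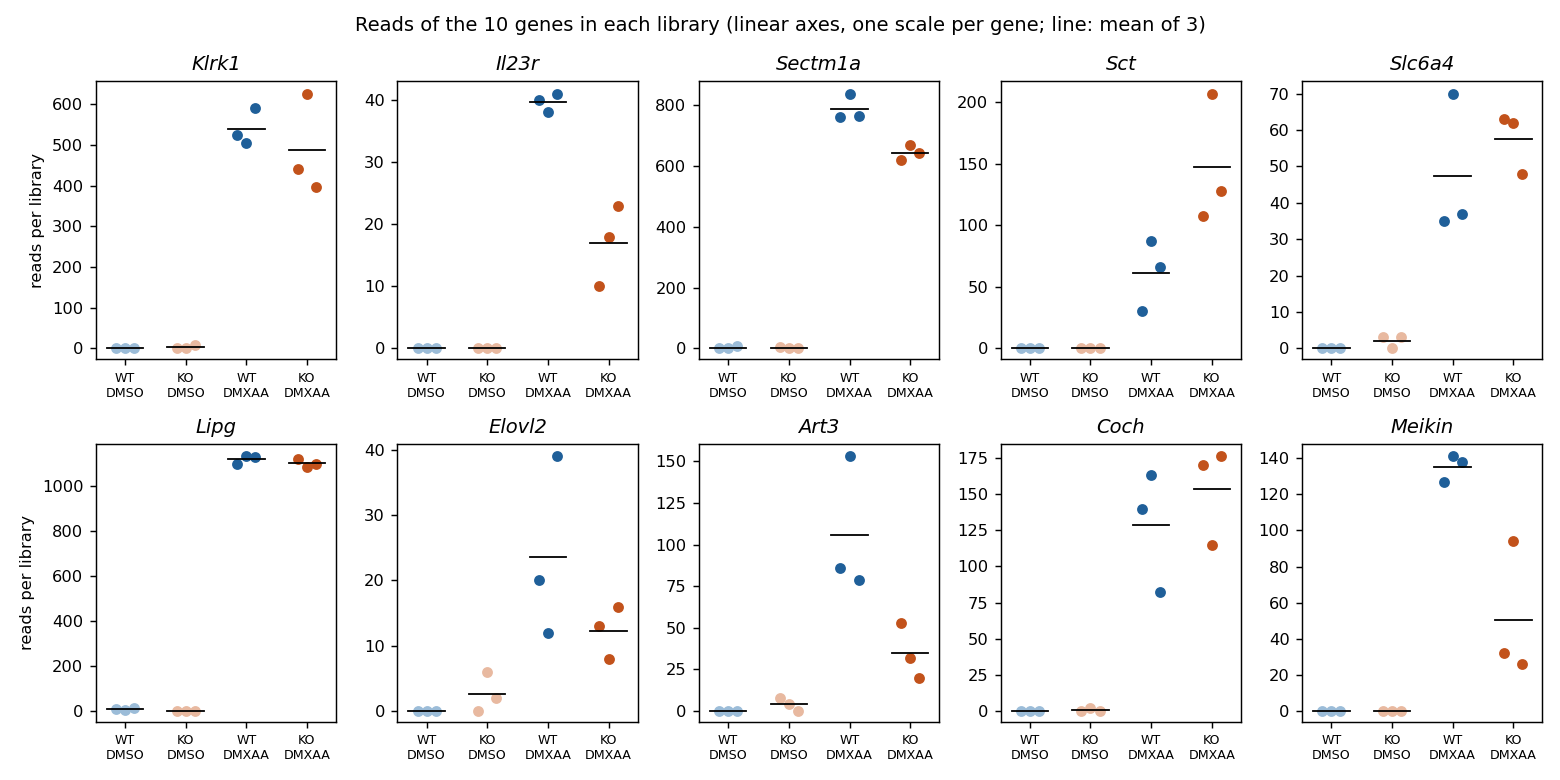
Reads of each gene in each of the 12 libraries, on a linear axis scaled per gene. Points are libraries and lines are means of 3. DMSO libraries lie between 0 and 13 reads, and Lipg, Sectm1a and Klrk1 reach 396 reads or more under DMXAA, whereas Elovl2 and Il23r stay at 41 or fewer.

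The genotype comparison under DMXAA used limma on log2(normalized count + 1), with a gene called at a Benjamini-Hochberg adjusted p under 0.05 over all 12499 tested genes. It called 5 of the 10 genes, against 21.5% of all tested genes. Of these, 4 were lower in KO (Art3, Meikin, Il23r and Sectm1a) and 1 was higher (Sct), against 10.8% and 10.7% of all tested genes. All tested genes are not a like reference, since the 10 were chosen in part by their DMXAA reads. The KO and WT libraries did not overlap for 6 of the 10, the called genes and Lipg, against 37.6% of tested genes (18.5% lower and 19.1% higher). The median difference was -0.31 on the log2 scale over the 10 genes and -0.0020 over all tested genes. edgeR's quasi-likelihood test and DESeq2 on the recovered reads each called 5 (21.2% and 22.0% of all genes with an adjusted p). The count fell to 3 (Art3, Meikin and Sectm1a) without WT DMXAA replicate 1, and to 1, Meikin, in a fit that shared its estimate of the spread with the DMSO libraries.

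**Figure D2:**
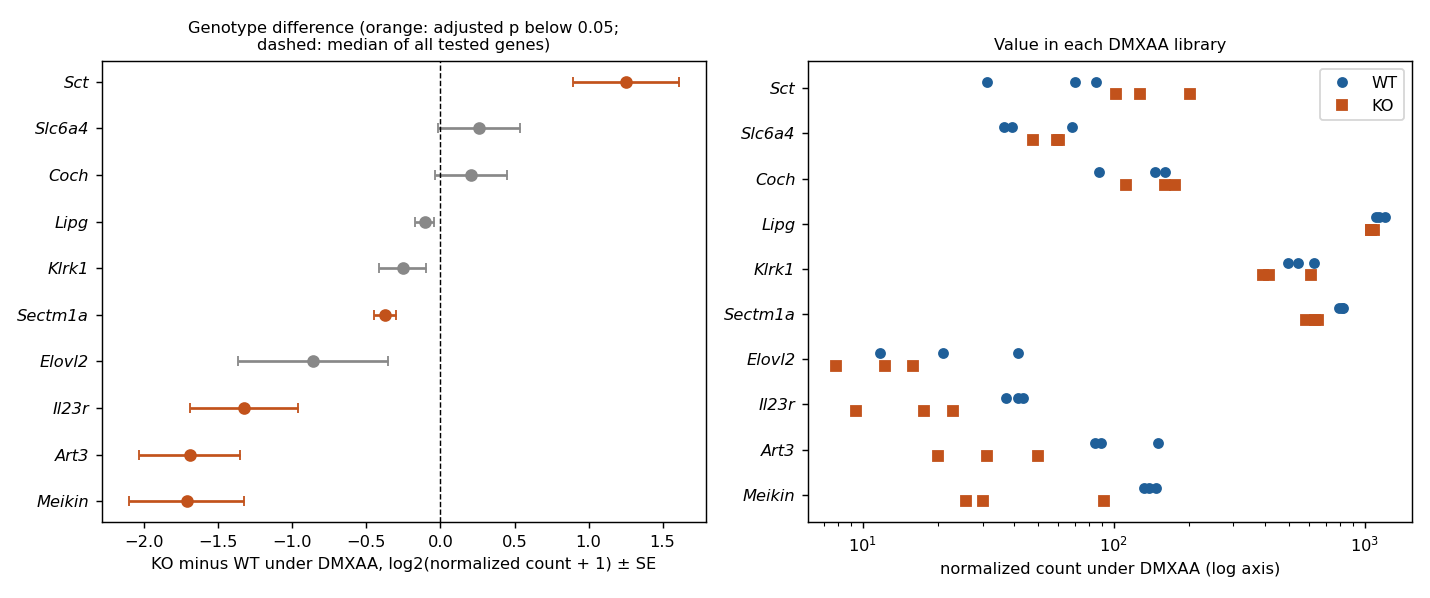
Left, KO minus WT difference under DMXAA on the log2(normalized count + 1) scale with its SE, orange where the adjusted p is under 0.05, the dashed line marking the median of all tested genes. Right, the normalized count in each DMXAA library on a log axis. Sct stands alone to the right at 1.25, while Meikin, Art3 and Il23r lie at -1.33 or lower.

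Among the receptors, Klrk1 (chr6:129610323-129623864, minus strand) went from 0 reads in each WT DMSO library to 524, 504 and 592 under DMXAA. In KO it had 0, 0 and 9 reads under DMSO and 441, 626 and 396 under DMXAA. The rise was at least 675-fold in WT, set against a floor of 3 reads over the DMSO group, and 175-fold in KO (95% counting interval 101 to 423). All 9 KO DMSO reads were in replicate 3, and without that library the KO change went from 7.91 to 9.02 on the log2(normalized count + 1) scale. The genotypes overlapped under DMXAA: KO libraries averaged 473 ± 119 normalized counts and WT libraries 556 ± 69.5 (SD, n = 3 each), a log2 difference of -0.25 (limma, SE 0.157, adjusted p = 0.296). Without KO DMXAA replicate 2, the highest of the KO libraries, the difference was -0.45 and was called (adjusted p = 0.0277).

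NKG2D signals through adaptors that macrophages already hold. Hcst, which encodes its adaptor DAP10, and Tyrobp, which encodes DAP12, were not called under DMXAA in either genotype (Hcst averaged 645 normalized counts under DMSO and 680 under DMXAA in WT). Of the 13 listed genes in the NKG2D list, 10 were tested in each genotype, and 1 was called higher and 6 lower in WT and likewise 1 and 6 in KO. Over all genes, 62.8% were called in WT and 66.6% in KO. The gene that rose was Klra2, an Ly49-family receptor, from 128 to 3828 normalized counts in WT (log2 4.93, limma, SE 0.183, adjusted p = 7.0e-09) and by 4.72 in KO. Those that fell include the ligand genes Raet1e (-1.87 in WT and -1.25 in KO) and H60b (-1.96 and -1.14). Raet1 genes are near-identical copies, and how their shared reads were counted is not given in the sources used here.

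Every gene listed in a deposited table has reads in 2 or more of its 6 libraries, so a gene that is not listed may still have reads in a library. Of 17 T and NK cell markers 10 are listed, and these summed to 3.83 to 7.22 reads per M reads in WT DMSO, 5.79 to 6.30 in WT DMXAA, 5.03 to 5.71 in KO DMSO and 4.50 to 5.59 in KO DMXAA. Most of these reads were of Cd247 (225, 466 and 466 in WT DMSO, 341, 421 and 376 in WT DMXAA) and Cd4. The other listed markers had 18 or fewer reads in any library. Cd4, the only one called of 2 tested, rose (log2 0.91 in WT and 0.71 in KO, limma, adjusted p = 0.00228 and 0.0189), with 125, 78 and 96 reads in WT DMSO and 157, 156 and 131 in WT DMXAA. Cd3e and Cd3g had 0 reads in the KO DMXAA libraries, and Cd3d, Trac, Prf1 and Gzma are not listed. Dendritic cell markers summed to 0.245 to 0.936 reads per M reads in WT DMSO and 5.38 to 5.47 in WT DMXAA. Both genes of that list that were tested rose, Xcr1 (8, 6 and 5 reads against 350, 387 and 325 in WT) and Clec9a (8, 60 and 39 against 118, 103 and 131). Siglech and Cd209a had 0 reads in the KO DMXAA libraries. The part of such cells in the Klrk1 reads was not tested.

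Il23r (chr6:67422932-67491855, minus strand) had 0 reads in all 6 DMSO libraries. It had 40, 38 and 41 reads in the WT DMXAA libraries and 10, 18 and 23 in the KO ones. Every KO library lay below every WT library. The bounds on its rise were at least 49.5-fold in WT and 20.2-fold in KO. Under DMXAA the KO mean was 16.6 ± 6.75 and the WT mean 40.8 ± 3.32 normalized counts (SD, n = 3), a log2 difference of -1.33 (limma, SE 0.364, adjusted p = 0.0253). That call rests on few reads: it was lost without KO DMXAA replicate 1 (-0.99, adjusted p = 0.0635) and without WT DMXAA replicate 1, 2 or 3 (adjusted p = 0.0713, 0.0582 and 0.0775).

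IL-23 is read by a pair of chains, IL23R and IL12RB1. Il12rb1 rose with DMXAA in both genotypes, from 32.1 to 1338 normalized counts in WT (log2 5.36, limma, adjusted p = 4.8e-09) and from 17.4 to 717 in KO (log2 5.33, adjusted p = 1.3e-08). Under DMXAA it was lower in KO than in WT by a log2 difference of -0.94 (adjusted p = 0.00016), the same direction as Il23r. The signalling kinases Jak2 and Tyk2 and the transcription factor Stat3 also rose (Stat3 by 1.25 in WT and 1.19 in KO). Il12rb2, the IL-12 receptor chain whose gene is the nearest listed neighbour of Il23r at 46.7 kb, fell (log2 -0.95 in WT and -1.85 in KO), and Stat4 fell (-3.38 and -3.91). Of 14 list genes 7 were tested, with 4 called higher and 2 lower in WT and 4 and 3 in KO. The cytokine genes had almost no reads: Il23a summed to 3 reads over the WT DMXAA libraries and is not listed for KO, and Il12b summed to 15 and 11. The gamma delta T cell and innate lymphoid markers Trdc, Tcrg-C1, Tcrg-C2, Cd163l1 and Blk are not listed.

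Sectm1a (chr11:121067407-121081220, minus strand) encodes a secreted and transmembrane protein of the family that holds the CD7 ligand SECTM1. It had 0, 0 and 7 reads in WT DMSO and 761, 837 and 765 in WT DMXAA, a 380-fold ratio with a counting interval of 205 to 1053. In KO it had 4, 0 and 0 reads under DMSO and 619, 670 and 641 under DMXAA. The DMSO reads of each genotype were in a single library, and without it the log2 change went from 8.78 to 9.78 in WT and from 8.71 to 9.45 in KO. The genotype difference was small. KO libraries averaged 624 ± 35.9 and WT libraries 808 ± 15.04 normalized counts under DMXAA (SD, n = 3), a log2 difference of -0.37 (limma, SE 0.0750, adjusted p = 0.00527), and the libraries did not overlap. Sharing the spread with the DMSO libraries ended the call (adjusted p = 0.781). Cd7, the gene of the receptor of its human relative, had 2 reads over the WT DMXAA libraries and 0 over the KO ones.

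Sct (chr7:141278330-141279133, minus strand) had 0 reads in all 6 DMSO libraries. It had 30, 87 and 66 reads in WT DMXAA and 108, 207 and 128 in KO DMXAA, and every KO library was above every WT library. It was the only gene of the 10 called higher in KO: the means were 143 ± 51.8 and 62.2 ± 27.9 normalized counts (SD, n = 3), a log2 difference of 1.25 (limma, SE 0.358, adjusted p = 0.0302). The call was lost without KO DMXAA replicate 2 (0.98, adjusted p = 0.113), KO DMXAA replicate 3 (1.31, adjusted p = 0.0628) or WT DMXAA replicate 1 (0.82, adjusted p = 0.0682). The rise with DMXAA was at least 75.6-fold in WT and 175-fold in KO. Of the 11 genes of the secretin family and its receptors 3 are listed, and the only one tested, the VIP receptor gene Vipr1, fell (log2 -2.33 in WT and -3.68 in KO).

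Slc6a4 (chr11:76998603-77032340, plus strand) had 0 reads in WT DMSO and 35, 70 and 37 under DMXAA. In KO it had 3, 0 and 3 reads under DMSO and 63, 62 and 48 under DMXAA. The rise was at least 58.4-fold in WT and 32.7-fold in KO (95% counting interval 15.4 to 94.5). The genotypes overlapped under DMXAA, with a log2 difference of 0.26 (limma, SE 0.277, adjusted p = 0.567). Of the 16 serotonin and monoamine genes 6 were tested in each genotype, with 3 called higher and 1 lower in both. Slc18a1, a vesicular monoamine transporter, rose by 1.51 in WT and 2.33 in KO, Htr2b, a serotonin receptor, rose by 0.83 and 1.02, and the degrading oxidase Maoa fell (-0.35 and -0.24). The third called higher, Tgm2, changed sign when libraries were scaled to the same total (0.14 against -0.18 in WT and 0.27 against -0.12 in KO). Tph1, which starts serotonin synthesis, had 3 reads over the WT DMXAA libraries and 0 over the KO ones. Mast cell and basophil markers summed to 0.294 to 0.352 reads per M reads in WT DMSO and 2.72 to 3.23 in WT DMXAA, and the rise was in Hdc (0, 9 and 4 reads against 247, 243 and 260). Mcpt8, Mcpt4, Ms4a2, Fcer1a and Tpsb2 are not listed. Megakaryocyte and platelet markers went the other way, from 19.9 to 24.3 reads per M reads in WT DMSO to 10.6 to 12.2 in WT DMXAA. The part of either list in the Slc6a4 reads was not tested.

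Lipg, on chromosome 18, had the most reads of the 10 genes. It had 7, 3 and 13 reads in WT DMSO and 1100, 1133 and 1132 in WT DMXAA. In KO it had 0 reads in each DMSO library and 1123, 1087 and 1100 under DMXAA. The ratio was 176-fold in WT (95% counting interval 122 to 290) and at least 1303-fold in KO. Under DMXAA the KO libraries lay just below the WT libraries, at 1070 ± 19.6 against 1153 ± 49.3 normalized counts (SD, n = 3), and the log2 difference of -0.11 was not called (limma, SE 0.0638, adjusted p = 0.279). Of the 20 genes of lipases and their regulators, 14 were tested in WT and 13 in KO, with 4 called higher and 6 lower in WT and 5 and 7 in KO. With libraries scaled to the same total these became 3 and 9 in WT and 4 and 9 in KO, and Pnpla2, a triglyceride lipase gene called higher in KO (0.19), was called lower (-0.20). Of all tested genes, 55.6% were lower in WT and 61.6% in KO under that scaling. Lpl, the related lipoprotein lipase, fell (-1.62 in WT and -0.75 in KO), and the apolipoprotein gene Apoe fell (-1.72 and -1.89). Lipc, the hepatic lipase of the same family, rose from 24.8 to 71.1 normalized counts in WT (log2 1.45) and by 1.62 in KO. Endothelial markers summed to 40.3 to 40.8 reads per M reads in WT DMSO and 66.6 to 70.0 in WT DMXAA, and to 62.5 to 66.3 and 80.5 to 81.6 in KO, while Emcn and Tie1 are not listed. Kdr rose, with 581, 633 and 512 reads in WT DMSO and 4491, 4935 and 4371 in WT DMXAA. Vwf fell, with 2957, 2765 and 2481 reads in WT DMSO and 1155, 1302 and 1155 in WT DMXAA. Of the 4 endothelial markers tested in each genotype, 2 were called higher and 1 lower in WT, and 1 and 1 in KO. The part of such cells in the Lipg result was not tested.

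Elovl2, on chromosome 13 (chr13:41182381-41220405, minus strand), had the fewest reads. It had 0 reads in WT DMSO and 20, 12 and 39 under DMXAA, and 0, 6 and 2 in KO DMSO against 13, 8 and 16 under DMXAA. The rise was at least 29.97-fold in WT and 5.65-fold in KO (95% counting interval 2.52 to 13.6). The genotypes overlapped under DMXAA, and the log2 difference of -0.86 was not called (limma, SE 0.509, adjusted p = 0.273). Of the elongation and desaturation list, 15 genes were tested in WT, with 2 called higher and 11 lower, and 14 in KO, with 2 and 10. Over all tested genes 31.1% were called lower in WT and 32.9% in KO. With libraries scaled to the same total, 13 of the 15 were lower in WT and 12 of the 14 in KO, against 55.6% and 61.6% of all genes. Elovl7 fell (-2.64 in WT and -3.11 in KO), as did Fads2, a fatty acid desaturase (-2.70 and -2.48), and Hacd1, a dehydratase of the elongation cycle (-2.21 and -1.59). Scd2, a stearoyl-CoA desaturase, fell (-0.85 and -2.17), and under DMXAA it was lower in KO by a log2 difference of -2.53 (limma, adjusted p = 2.7e-06).

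Art3 (chr5:92331827-92414628, plus strand) encodes a surface-anchored member of the ecto-ADP-ribosyltransferase family. It had 0 reads in WT DMSO and 86, 153 and 79 under DMXAA, and 8, 4 and 0 in KO DMSO against 53, 32 and 20 under DMXAA. All KO DMXAA libraries lay below all WT ones. The rise was at least 131-fold in WT and 10.7-fold in KO (95% counting interval 5.70 to 20.7). The means under DMXAA were 33.7 ± 15.2 in KO and 108 ± 36.4 normalized counts in WT (SD, n = 3), a log2 difference of -1.69 (limma, SE 0.340, adjusted p = 0.0053). The call was kept without each library in turn (adjusted p from 0.0026 to 0.0277) and ended when the spread was shared with the DMSO libraries (adjusted p = 0.097).

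The Art3 value is uncertain because of its position. Cxcl10 and Cxcl11 lie inside the gene on the opposite strand, 133 exon bases of Art3 are shared with Cxcl10, and whether the strand was used in counting is not given in the sources used here. Cxcl10 had 184, 142 and 191 reads in WT DMSO and 14758, 17026 and 14925 under DMXAA, and in KO 12318, 12179 and 14714 under DMXAA, so it was lower in KO by a log2 difference of -0.34 (limma, adjusted p = 0.010). Its part in the Art3 reads was not tested. Of the ecto-ADP-ribosyltransferases and NAD hydrolases, Art2a rose by 3.56 in WT and 3.54 in KO and Bst1, which hydrolyses NAD, by 2.06 and 2.20, while the hydrolase gene Macrod1 fell (-2.17 and -2.64). In all, 7 genes of this list were tested in WT and 6 in KO, with 2 called higher and 2 lower in WT and 2 and 1 in KO.

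Coch (chr12:51593341-51605771, plus strand) had 0 reads in WT DMSO and 140, 163 and 82 under DMXAA. In KO it had 0, 2 and 0 reads under DMSO and 170, 115 and 176 under DMXAA. The rise was at least 159-fold in WT and 294-fold in KO (95% counting interval 75.3 to 2265, from 2 DMSO reads). The genotypes overlapped, and the log2 difference of 0.21 (limma, SE 0.242, adjusted p = 0.605) turned to -0.057 without WT DMXAA replicate 3. Only Dcbld2 and Matn2 of the 9 genes with related domains were tested. Dcbld2, a membrane protein with an LCCL domain like that of cochlin, fell (-1.73 in WT and -2.07 in KO), and the matrix gene Matn2 fell (-1.99 and -1.83).

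Meikin (chr11:54370652-54426790, plus strand) had 0 reads in all 6 DMSO libraries. It had 127, 141 and 138 reads in WT DMXAA and 32, 94 and 26 in KO DMXAA, with no overlap and a wide spread in KO. The KO mean was 49.2 ± 36.7 and the WT mean 139 ± 7.54 normalized counts (SD, n = 3), a log2 difference of -1.71 (limma, SE 0.387, adjusted p = 0.00964). It was called without each library in turn, with adjusted p from 0.00015 to 0.0379, and in the fit over all 12 libraries (adjusted p = 0.0309). The rise with DMXAA was at least 169-fold in WT and 59.9-fold in KO.

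The meiotic kinetochore and cohesion list had 10 genes tested in WT and 9 in KO, with 1 called higher and 5 lower in WT and 2 and 5 in KO. Smc1b, the meiotic cohesin subunit, was called higher in both, its reads over 3 libraries being 1 under DMSO and 94 under DMXAA in WT, and 3 and 73 in KO. Plk1 and Bub1, which also act in mitosis, fell (log2 -2.29 and -1.56 in WT, -2.62 and -1.92 in KO). Both were lower in KO than in WT under DMXAA (log2 differences of -1.79 and -1.84). The germ cell markers summed to 0.944 to 1.39 reads per M reads in WT DMSO and 13.3 to 16.6 in WT DMXAA, and to 8.77 to 11.04 in KO DMXAA. That rise was in Ddx4, an RNA helicase gene with 50, 65 and 20 reads in WT DMSO, 1348, 1483 and 1097 in WT DMXAA and 812, 894 and 981 in KO DMXAA. Mael is not listed, and the part of such cells in the Meikin reads was not tested.

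**Figure D3:**
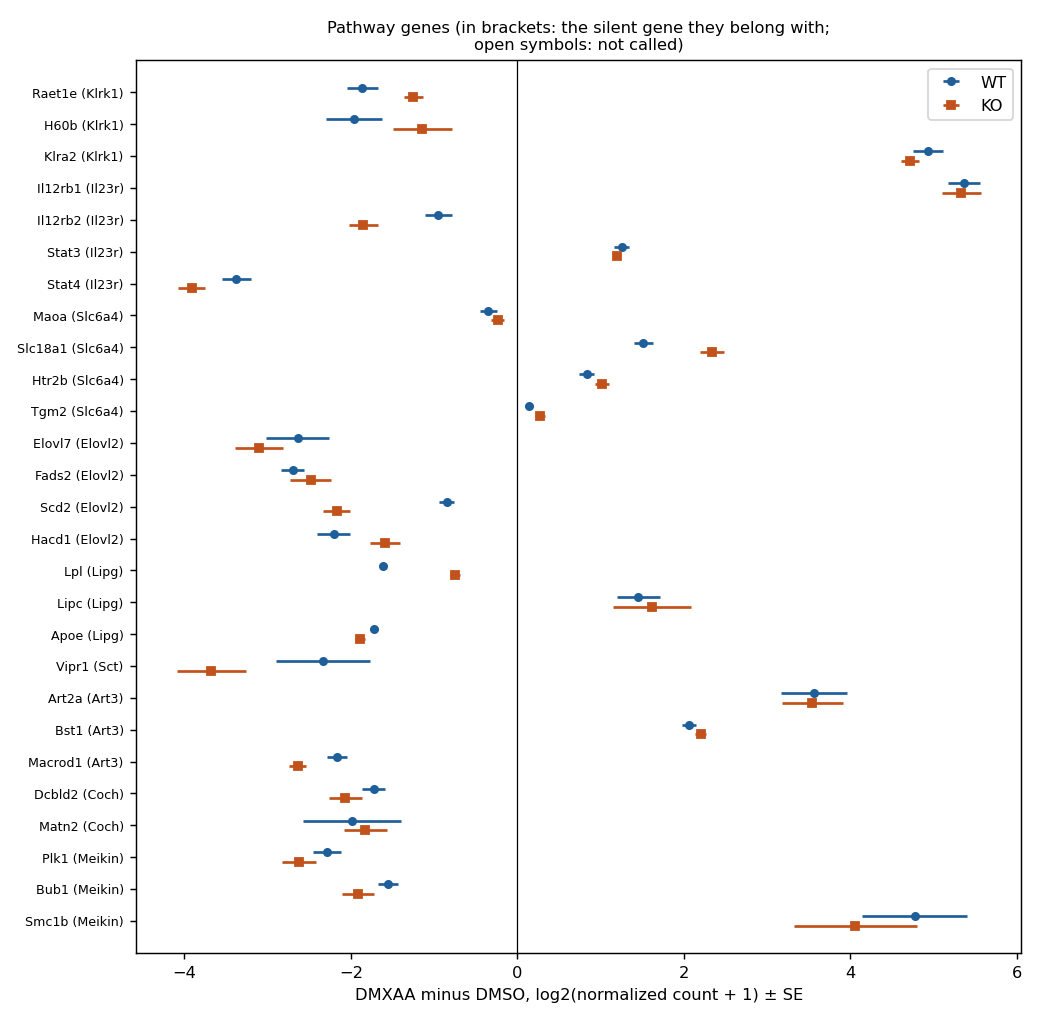
DMXAA minus DMSO change, with SE, of the pathway genes with the largest called changes of each list, circles for WT and squares for KO. The gene in brackets is the one whose list they belong to. Il12rb1, Klra2, Smc1b and Art2a lie furthest to the right, and Stat4, Elovl7 and Vipr1 furthest to the left. The height of Smc1b depends on the added 1, since it had 3 or fewer reads under DMSO.

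Over all 10 lists together, 131 genes were set beside the 10, and 95 of them are listed. In WT 17 of 72 tested were called higher and 36 lower, and in KO 19 of 68 higher and 36 lower, against 31.7% higher and 31.1% lower of all tested genes in WT and 33.7% and 32.9% in KO. With libraries scaled to the same total the counts were 15 higher and 50 lower in WT and 16 and 45 in KO. Of all tested genes, 16.1% were then called higher and 55.6% lower in WT, and 15.7% and 61.6% in KO. Between genotypes under DMXAA, 8 of 67 were higher and 15 lower in KO, and 44 were not called, against 10.7% higher and 10.8% lower of all tested genes.

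Levels between genes were compared as reads per kb of exon per M reads. Under DMXAA in WT, Sectm1a was highest at 5.29 ± 0.0700 (SD, n = 3), followed by Lipg at 2.71 ± 0.112, Sct at 1.07 ± 0.474, Meikin at 1.01 ± 0.04997, Klrk1 at 0.857 ± 0.106 and Coch at 0.483 ± 0.142. Art3 (0.303 ± 0.102), Il23r (0.182 ± 0.0149), Slc6a4 (0.117 ± 0.0430) and Elovl2 (0.0689 ± 0.0424) followed. Sct overlapped between libraries with Meikin, Klrk1 and Coch and has no order with them. Meikin and Klrk1, Coch and Art3, Il23r and Slc6a4, and Slc6a4 and Elovl2 also overlapped and have no order. In the ranking of 14989 genes, Sectm1a stood at percentile 67.5 and Elovl2 at percentile 20.01. In KO, Sectm1a (3.96 ± 0.207) was again highest, Sct (2.39 ± 0.853) overlapped with Lipg (2.44 ± 0.0395), and Meikin averaged 0.346 ± 0.257. Klrk1, Coch and Meikin also overlapped with each other in KO and have no order. The same held for Slc6a4 and Art3, Art3 and Il23r, and Il23r and Elovl2.

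**Figure D4:**
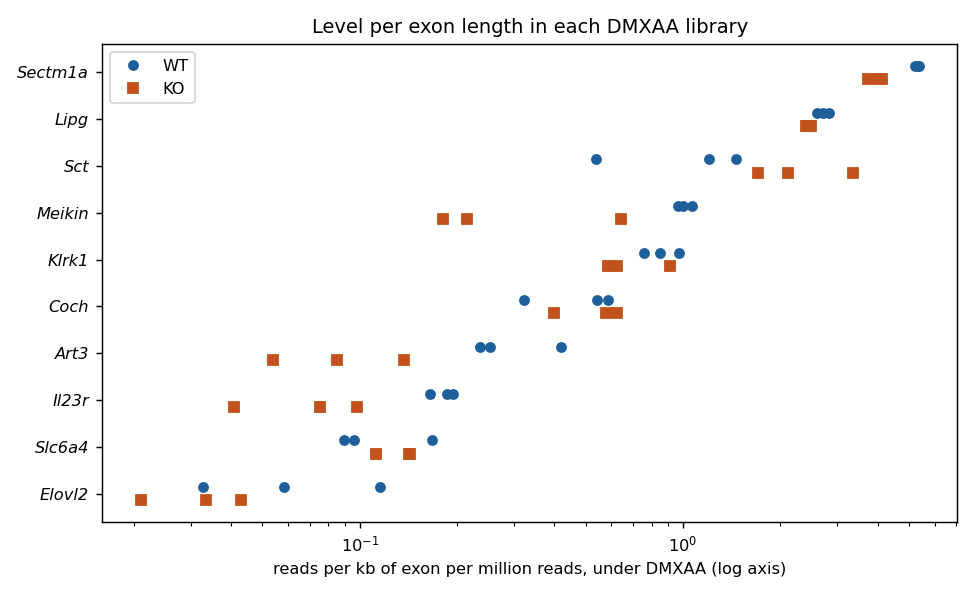
Reads per kb of exon per M reads of each gene in each DMXAA library on a log axis, circles for WT and squares for KO. Sectm1a stands highest in both genotypes, Lipg follows without overlap in WT, and in KO Lipg overlaps with Sct.

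Within 100 kb of the 10 genes lay 45 other listed genes, 31 of them tested. In WT 12 were called higher and 8 lower, and in KO 13 and 10 (38.7% and 25.8% in WT and 41.9% and 32.3% in KO, against 31.7% and 31.1%, and 33.7% and 32.9%, of all tested genes). The 4 that changed by more than 2 log2 units, Cxcl9, Cxcl10, Cxcl11 and Irf7, lie beside or within Art3 and beside Sct. Irf7, a transcription factor of the interferon response, is 11.8 kb from Sct and rose by 4.84 in WT and 6.93 in KO. Between Irf7 and Sct lies Cdhr5, which had 0 reads in both DMSO groups and reached a mean normalized count of 2.52 (WT) and 16.6 (KO) under DMXAA. Cxcl9, a chemokine gene 3.75 kb from Art3, had 11, 3 and 23 reads in WT DMSO and 5507, 5287 and 5737 in WT DMXAA. In KO it had 1 read in each DMSO library and 13873, 13109 and 13191 under DMXAA, a log2 genotype difference of 1.20 (limma, adjusted p = 1.1e-06), opposite in sign to that of Art3. Cxcl11 was lower in KO under DMXAA, like Art3 (-0.55, adjusted p = 0.0154). Klrk1 showed no such rise close by, since Klrd1, which encodes CD94, had 4 reads over the WT DMXAA libraries. Gabarapl1, 68.0 kb from Klrk1, fell (-0.85 in WT and -0.92 in KO). Klra17, the nearest listed gene on the other side at 207 kb, rose by 4.73 in WT and 3.46 in KO and was lower in KO under DMXAA (-0.80, adjusted p = 0.0266). Blmh, 11.2 kb from Slc6a4, fell (-1.25 in WT and -1.03 in KO), and Nedd9, 89.2 kb from Elovl2, fell (-1.34 and -0.68). When libraries were scaled to the same total, the median of all genes shifted by -0.32 in WT and by -0.39 in KO, and the neighbour counts became 7 higher and 15 lower in WT and 6 and 19 in KO. These are 22.6% and 48.4% in WT, against 16.1% and 55.6% of all tested genes. In KO they are 19.4% and 61.3%, against 15.7% and 61.6%.

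**Figure D5:**
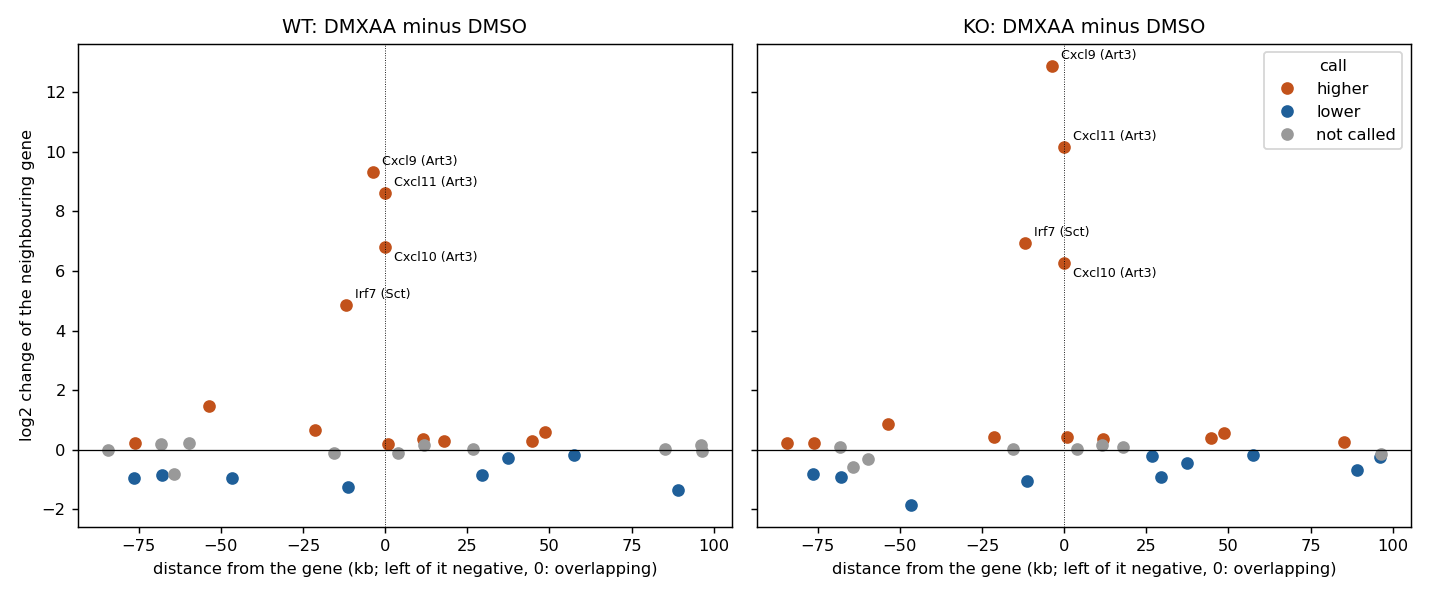
Log2 change with DMXAA of the tested genes within 100 kb, by distance from the gene, WT left and KO right, coloured by call. Cxcl9, Cxcl10, Cxcl11 and Irf7 stand above the rest, and the heights of Cxcl9 and Cxcl11 in KO depend on the added 1 because they had 3 and 0 reads over the DMSO libraries. The other neighbours stay within 2 log2 units.

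Read limits were set to see how many other genes behaved this way: at most 10 reads over the 3 DMSO libraries and at least 50 in every DMXAA library. In WT 22 genes met them, 5 of them among the 10 (Sectm1a, Klrk1, Meikin, Coch and Art3). In KO 37 did, again with 5 of the 10 (Sectm1a, Klrk1, Coch, Lipg and Sct). Both genotypes gave 13 genes, with Sectm1a, Klrk1 and Coch among them. Lipg fell outside in WT through its 23 DMSO reads, and Il23r, Slc6a4 and Elovl2 through their DMXAA reads in both genotypes. Of the other genes that met them in both, predicted and Rik symbols left out, those with the highest WT level under DMXAA were Gbp2b, Fam3b, Serpina3f, Pla1a and Csprs. Among the symbols left out, A630012P03Rik lay above Pla1a. Gbp2b, an interferon-inducible GTPase, had 1, 0 and 0 reads in WT DMSO and 520, 445 and 139 under DMXAA. Fam3b, a secreted cytokine-like protein, had 0, 0 and 4 reads and then 165, 286 and 289, against 144, 150 and 133 in KO DMXAA, and was lower in KO (-0.83, limma, adjusted p = 0.0131). Pla1a, a phosphatidylserine phospholipase, was lower in KO as well (-0.66, adjusted p = 0.0192). Gbp2b, Serpina3f and Csprs were not called (-0.40, -0.14 and 0.04). Of all 10 other genes that met the limits in both genotypes, 4 were called lower in KO and 1 higher. Over all tested genes these shares were 10.8% and 10.7%.

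In the authors' deposited table for KO against WT under DMXAA, the adjusted p was under 0.05 for Art3 (log2 fold change -1.68), Meikin (-1.50), Il23r (-1.30), Sectm1a (-0.37) and Sct (1.20). The adjusted p for Il23r there was 0.0459, the highest of these.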

How the data were processed

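Per the labels' protocols, RNA was extracted with a column kit and strand-specific libraries were sequenced. Per the submitters' processing notes, HISAT2, featureCounts and the build mm10 were used, and the versions and the strand setting of the counting are not given. The authors deposited 4 tables of 6 libraries each, whose signal is a normalized count with its own scaling per table, and comparison tables with a log2 fold change and an adjusted p-value. Values divided by the worth of a single read were whole in 100% of cases (tolerance 0.01) and the same in both tables that hold a library, so reads are printed here. Genes not listed for a library count as 0 in summed marker levels. The 10 genes, their pathway lists and the tests were chosen with earlier results of these data known.

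The main test was limma 3.58.1 (lmFit, eBayes with trend; R 4.3.3) on log2(normalized count + 1), for genes with a mean of at least 10 over 6 libraries, two-sided, with Benjamini-Hochberg adjustment over all tested genes. Under that mean, Il23r and Elovl2 were left out of the KO fit of DMXAA against DMSO. Alternatives were edgeR 4.0.16 and DESeq2 1.42.0 on the reads, pseudocounts of 0.5 and 5, no filter, a mean of 50, 2 scalings, a replicate block, all 12 libraries in a single fit, and leaving out each library. The script was tested on simulated data. With 3 libraries a group, an exact permutation test cannot go below p = 0.1. Intervals are exact binomial ones (95%) of pooled reads and cover counting error only, and folds against 0 reads use a floor of 3 reads over the group of 3 libraries. Positions and exon lengths come from GENCODE for GRCm38, in which 97.3% of symbols had a single position. Named genes were all 10, up to 3 called genes per list with the largest change in WT and in KO, and the 5 like genes with the highest WT level (predicted and Rik symbols left out). Of the nearest genes on each side and the called neighbours within 100 kb, only some are named. Other genes are named where a list's reads or sign needed them. A gene that this rule names is not reported here.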

Additional observations from a re-analysis of the deposited data

Results flagged for a closer look

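Mastl, a mitotic kinase gene of the meiotic list, moved in opposite directions in the 2 genotypes with no overlap between libraries: it fell by 0.61 on the log2 scale with DMXAA in WT and rose by 0.76 in KO. Rapgef6, near Meikin, changed by 0.16 in WT and -0.26 in KO, and Rassf7, near Sct, by 0.23 and -0.33, of which only the KO change of Rapgef6 was called. Whether the change with DMXAA differed between genotypes was not tested for these 3 genes. Under DMXAA itself, KO was lower than WT by a called log2 difference for Rapgef6 (-0.24, limma, adjusted p = 0.0499), while the differences of Rassf7 (-0.36, adjusted p = 0.115) and Mastl (-0.54, adjusted p = 0.103) were not called.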

How the results depend on the processing

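Of the alternatives to the genotype comparison under DMXAA, the fit over all 12 libraries changed most: it called 1 of the 10 genes, and Art3 (-1.69), Il23r (-1.33), Sct (1.25) and Sectm1a (-0.37) kept their difference but lost the call. The cause was not tested. With a replicate block 5 of the 10 were called, 2491 genes in all against 2686, and the block changed no call of the 10 genes. Same-numbered libraries correlated between -0.036 and 0.064, and not every library did best with its own number. The numbers are those of the sample titles, and the library names number the DMSO libraries differently. Whether the samples were paired is therefore not settled by these values. Leaving out each library in turn gave 3 to 5 called genes, with differences of -0.057 to 0.40 for Coch, -0.45 to -0.14 for Klrk1, -1.59 to -0.99 for Il23r and 0.82 to 1.53 for Sct. The reads of Il23r and Elovl2 limit both, and a mean of at least 50 left them untested. When libraries were scaled to the same total, 7 neighbours were called higher and 15 lower in WT and 6 and 19 in KO, and the share of higher calls among all called genes fell from 50.5% to 22.4% in WT, from 50.6% to 20.3% in KO and from 49.7% to 34.3% between genotypes. Of all tested genes, 16.1% were then called higher and 55.6% lower in WT, and 15.7% and 61.6% in KO. The number of genes silent in both genotypes was 5 with at most 3 DMSO reads, 39 with at most 30, 28 with at least 20 reads in each DMXAA library and 8 with at least 100.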
